A study of Mus musculus with 9 samples.

Results

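The switch from an epithelial to a mesenchymal state was followed through 10 genes: Cdh1 and Epcam on the epithelial side, Cdh2, Cdh11 and Vim on the mesenchymal side, and the transcription factors Snai1, Snai2, Twist1, Zeb1 and Zeb2. Every probe set that the array annotation pairs with 1 of these symbols and no other was taken, which gave 23 probe sets of the 45037 tested and 10 genes of the 18193 with such a probe set. The rule names the genes and uses none of their values, but the genes were chosen with earlier results of these data known.

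RNA had been hybridised to 9 Affymetrix mouse arrays, 4 of E14 embryonic stem cells (ESCs, arrays 2, 6, 8 and 10) and 5 of embryoid bodies (arrays 1, 3, 5, 7 and 9). E14 is a mouse ESC line, and embryoid bodies are the aggregates in which ESCs differentiate. All 9 samples were total RNA, with E14 cells as the labelled source and no treatment, and the genotype, strain, day and culture of the embryoid bodies are not given in the sources used here. The methods call the ESC samples biological replicates but do not say whether the embryoid bodies came from separate cultures, so p-values measure only the spread between these samples, which may be technical.

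In an epithelium, E-cadherin joins neighbouring cells through catenins and the actin cytoskeleton. During gastrulation, cells of the epiblast leave the epithelium at the primitive streak. Transitions of this kind lower E-cadherin and raise N-cadherin and vimentin. Repressors of the Snail, Twist and Zeb families take part in them, not all in each tissue. ESCs grow as tight colonies that carry E-cadherin and EpCAM on their surface, and embryoid bodies form mesoderm through a transition like that of the primitive streak.

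Values are log2 of the deposited GCRMA intensity, so a difference of 1 is a doubling, and levels of different probe sets are not compared with each other. Between 49.1% and 49.9% of probe sets lay under log2 4 on each array, a level treated here as near the floor of the scale. Arrays correlated across all probe sets at Pearson r of 0.9953 to 0.9978 within ESCs, 0.9966 to 0.9986 within embryoid bodies and 0.9683 to 0.9769 between the groups, and none was a copy of another. Array intensities have no sequencing depth behind them. Precision depends on how many arrays there were and on the spread between them, which differed from probe set to probe set. Of 5 pluripotency genes 4 fell in embryoid bodies. Zfp42 stood at -6.47 (adjusted p = 1.76e-07 in limma's test) and Nanog at -3.34 (limma adjusted p = 3.93e-05). Pou5f1 and Sox2 were called lower too, while Esrrb did not pass (-0.14, limma adjusted p = 0.118). The Esrrb probe set is of a class whose probes can also match other transcripts. Whether Esrrb RNA itself changed is therefore uncertain. The same limit holds for the probe sets of that class given below for Vim (1438118_x_at), Hbb-y, Afp and Ctnna1. The paper used only probe sets marked _at alone, since others may match other genes. Those marked _s_at, as for Acta2, are among the others. Among the 10 genes, ESC arrays 8 and 10 stood apart from ESC arrays 2 and 6, most of all at Vim and Cdh2, and embryoid body arrays 7 and 9 stood apart from the other 3 at Cdh11 and Twist1. The same split was seen over all probe sets. ESC arrays 2 and 6 correlated at 0.9978 and arrays 8 and 10 at 0.9976, against 0.9953 to 0.9958 across these pairs. Embryoid body arrays 7 and 9 correlated at 0.9984 and the other 3 at 0.9983 to 0.9986, against 0.9966 to 0.9975 across. The results are therefore also given without these arrays.

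**Figure D1:**
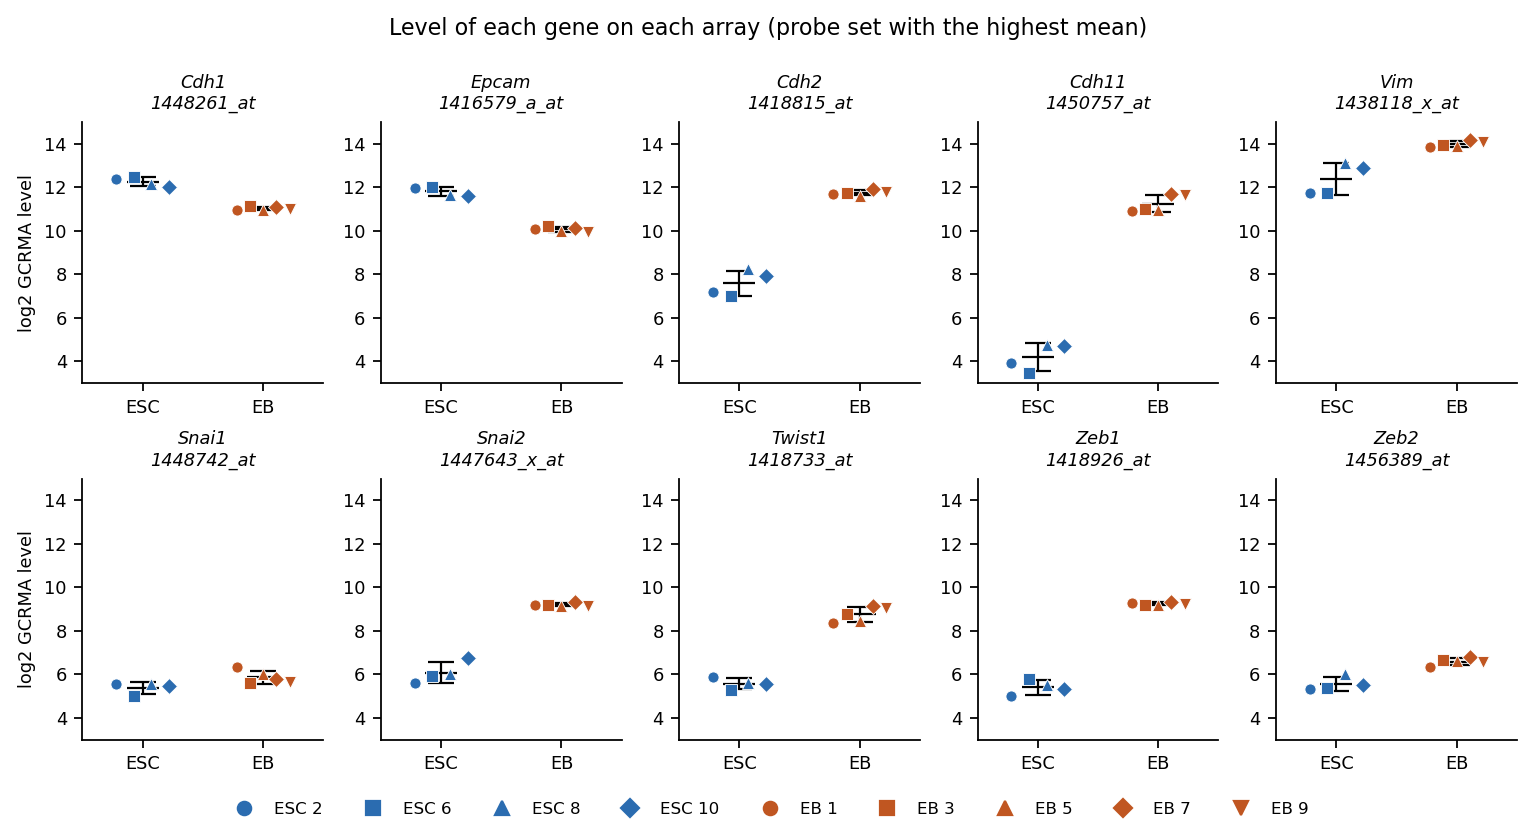
Log2 GCRMA level of each of the 10 genes on each array, at the probe set with the highest mean. Blue points are the 4 ESC arrays, orange points the 5 embryoid body arrays, and the black bars mark the group mean and 1 SD. Cdh1 and Epcam lie lower in embryoid bodies on every array, and Snai1 shows the smallest gap between the groups, from 5.57 to 5.60.

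The epithelial genes were lower in embryoid bodies, yet both stayed well above the floor. Cdh1 encodes E-cadherin, the calcium-dependent adhesion molecule of epithelia. Its 1 probe set, 1448261_at, read 12.39, 12.47, 12.17 and 12.03 on ESC arrays 2, 6, 8 and 10, and 10.97, 11.13, 10.98, 11.12 and 11.01 on embryoid body arrays 1, 3, 5, 7 and 9. The groups did not overlap, and the embryoid bodies lay within a narrow band. The mean moved from 12.27 ± 0.20 (SD, n = 4) to 11.04 ± 0.08 (SD, n = 5). Cdh1 thus fell by 1.23 (SE 0.09, 95% interval -1.43 to -1.03), a level 2.34-fold lower, with an adjusted p of 1.05e-05 in limma's test across all probe sets. In bulk samples such as these, fewer cells that express a gene and less RNA per cell cannot be told apart.

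Epcam encodes an adhesion molecule of epithelial and pluripotent cells. At 1416579_a_at it read 11.99, 12.02, 11.67 and 11.63 in ESCs, and 10.10, 10.22, 10.004, 10.11 and 9.93 in embryoid bodies. All 5 embryoid body arrays lay below all 4 ESC arrays. Epcam fell by 1.75 there (SE 0.10, 95% interval -1.98 to -1.53), to a level 3.37-fold lower (limma adjusted p = 2.55e-06). Its other probe set, 1447899_x_at, belongs to the class whose probes can also match other transcripts. That probe set read 9.53, 9.42, 9.32 and 9.67 in ESCs and 9.15, 9.23, 9.32, 9.23 and 9.31 in embryoid bodies. The groups touched near 9.32, and the difference of -0.24 (SE 0.07) did not pass the test (limma adjusted p = 0.0509). Without ESC array 8 it passed, with an adjusted p of 0.0191 in limma's test, and without embryoid body array 9 likewise, at 0.043.

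Proteins of the Snail and Zeb families are zinc finger repressors that bind the E-box letters CACCTG, or CAGGTG on the other strand, and they repress Cdh1 through such sites in its promoter. The 250 bases before the annotated start were read from RefSeq promoters (GRCm38.p6), which held 5 of the 10 genes: Epcam, Vim, Snai1, Twist1 and Zeb2. Cdh1, Cdh2, Cdh11, Snai2 and Zeb1 were not matched. Shown are an epithelial gene that fell, Epcam (chr17:87635729-87635978, plus strand), a mesenchymal gene that rose, Vim (chr2:13574061-13574310, plus strand), and a repressor, Snai1 (chr2:167537945-167538194, plus strand). Capitals mark CACCTG or CAGGTG.
Epcam: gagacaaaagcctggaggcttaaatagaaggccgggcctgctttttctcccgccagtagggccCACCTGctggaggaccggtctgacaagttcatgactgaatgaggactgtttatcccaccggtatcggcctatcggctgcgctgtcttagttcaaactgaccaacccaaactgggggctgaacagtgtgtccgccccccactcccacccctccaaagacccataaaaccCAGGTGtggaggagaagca
Vim: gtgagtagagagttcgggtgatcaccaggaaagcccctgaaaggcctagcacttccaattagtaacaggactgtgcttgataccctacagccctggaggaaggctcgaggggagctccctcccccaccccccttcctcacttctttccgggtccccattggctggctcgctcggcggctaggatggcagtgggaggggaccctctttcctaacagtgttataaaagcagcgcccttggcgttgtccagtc
Snai1: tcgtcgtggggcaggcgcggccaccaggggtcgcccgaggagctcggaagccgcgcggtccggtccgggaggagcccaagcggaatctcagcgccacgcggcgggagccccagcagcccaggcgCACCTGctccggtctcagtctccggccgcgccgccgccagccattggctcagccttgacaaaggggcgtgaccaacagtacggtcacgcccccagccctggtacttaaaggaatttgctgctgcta
The Epcam window held 2 matches, CACCTG beginning 187 bases and CAGGTG beginning 19 bases before the start. In Snai1 there was 1 match, CACCTG beginning 126 bases before the start. The windows of Vim and Twist1 and all 4 annotated starts of Zeb2 held none of these letters. Of 32851 mouse promoter windows of the same length, counted on both strands, 17.2% held 1 match or more and 2.06% held 2 or more. The shorter pattern CANNTG, which includes both, was in 66.2%. A match is a description of the letters and not of binding, which the arrays did not measure.

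All 3 mesenchymal genes were higher in embryoid bodies at every one of their 7 probe sets. Cdh2 encodes N-cadherin, the cadherin of mesoderm, heart muscle and neural tissue that takes the place of E-cadherin in the cadherin switch. At 1418815_at Cdh2 read 7.21, 7.03, 8.25 and 7.92 in ESCs and 11.68, 11.74, 11.60, 11.91 and 11.79 in embryoid bodies. No ESC array came near the embryoid bodies, which differed among themselves by little. The difference was +4.14 (SE 0.23, 95% interval 3.62 to 4.67), or 17.7-fold (limma adjusted p = 2.5e-06). The second probe set, 1449244_at, read 3.80, 3.85, 6.41 and 6.29 in ESCs and 9.45, 9.53, 9.61, 9.77 and 9.71 in embryoid bodies. On ESC arrays 2 and 6 it was under the floor level of 4, while arrays 8 and 10 lay clearly above it. That spread (SD 1.46, n = 4) gave the widest interval of all 23 probe sets, 3.23 to 5.82 around +4.52 (limma adjusted p = 0.000337).

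Cdh11 encodes the cadherin of loose mesenchyme and of osteoblasts, and it showed the largest difference of the 10 genes. Its probe set 1450757_at read 3.93, 3.45, 4.74 and 4.71 in ESCs, and 10.92, 10.98, 10.96, 11.67 and 11.67 in embryoid bodies. The ESC values sat at or near the floor, 2 of the 4 under log2 4, and embryoid body arrays 7 and 9 were above the other 3. The difference was +7.04 (SE 0.30, 95% interval 6.35 to 7.72, limma adjusted p = 6.24e-07). With each array under log2 4 set to that level, this probe set was at least 118-fold higher in embryoid bodies. At 1435120_at Cdh11 read 4.74, 4.75, 4.73 and 4.85 in ESCs and 6.78, 7.01, 6.94, 7.35 and 7.58 in embryoid bodies. Again arrays 7 and 9 were the highest, and the difference was smaller, +2.37 (SE 0.15, 5.16-fold, limma adjusted p = 5.15e-06). The size of the Cdh11 rise is therefore uncertain, while its direction was the same at both probe sets.

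Vim encodes vimentin, the intermediate filament of mesenchymal cells. It was already abundant in ESCs. At 1450641_at Vim read 10.62, 10.62, 12.32 and 12.23 in ESCs and 13.26, 13.39, 13.40, 13.64 and 13.68 in embryoid bodies. ESC arrays 8 and 10 lay between the other ESC arrays and the embryoid bodies, and the groups still did not overlap. The difference was +2.03 (SE 0.38, 95% interval 1.16 to 2.89), or 4.07-fold (limma adjusted p = 0.00398). At 1456292_a_at the levels were 10.27, 10.49, 11.98 and 11.84 in ESCs and 12.86, 13.02, 12.92, 13.21 and 13.22 in embryoid bodies. Probe set 1438118_x_at read 11.73, 11.74, 13.14 and 12.89 in ESCs and 13.84, 13.93, 13.88, 14.18 and 14.10 in embryoid bodies. Both showed the same order of ESC arrays, with differences of +1.90 (SE 0.36, adjusted p = 0.00379) and +1.61 (SE 0.30, adjusted p = 0.00352) in limma's test.

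Of the 5 transcription factors, 4 rose and Snai1 did not pass the test. Zeb1, a zinc finger and homeodomain repressor of Cdh1, read 4.98, 5.79, 5.53 and 5.31 in ESCs and 9.26, 9.18, 9.19, 9.34 and 9.23 in embryoid bodies at 1418926_at. The embryoid bodies agreed closely and lay far above every ESC array. Zeb1 rose by 3.84 (SE 0.14, 95% interval 3.52 to 4.16), or 14.3-fold, with the smallest adjusted p of the 23 probe sets (2.72e-07 in limma's test).

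Twist1 encodes a basic helix-loop-helix factor of head mesenchyme and mesoderm. At 1418733_at it read 5.90, 5.26, 5.62 and 5.54 in ESCs and 8.36, 8.77, 8.46, 9.17 and 9.05 in embryoid bodies. Embryoid body arrays 7 and 9 were the highest, as they were for Cdh11. Twist1 rose by 3.18 (SE 0.19, 95% interval 2.75 to 3.61), or 9.07-fold (limma adjusted p = 3.62e-06).

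Snai2 encodes Slug, the Snail family member of neural crest and mesoderm. Its probe set 1447643_x_at read 5.59, 5.93, 6.01 and 6.76 in ESCs and 9.17, 9.19, 9.16, 9.31 and 9.16 in embryoid bodies. The 1418673_at values were 6.37, 6.68, 6.04 and 6.81 in ESCs and 7.27, 7.13, 7.28, 7.41 and 7.13 in embryoid bodies. Neither probe set had overlapping groups, but the sizes were far apart, +3.13 (SE 0.20, 8.73-fold, adjusted p = 4.64e-06) against +0.77 (SE 0.15, 1.70-fold, adjusted p = 0.00452) in limma's test. The first can cross-match other transcripts and has no transcript accession in the annotation, so the size of the Snai2 rise is uncertain while its direction was the same at both.

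Zeb2, the close relative of Zeb1, rose less. At 1456389_at Zeb2 read 5.32, 5.38, 6.01 and 5.53 in ESCs and 6.34, 6.66, 6.61, 6.79 and 6.55 in embryoid bodies. At 1434298_at the levels were 2.80, 3.96, 3.93 and 4.22 in ESCs and 5.11, 5.54, 5.59, 5.98 and 5.32 in embryoid bodies. Neither probe set had overlapping groups, and most ESC values of the second were under the floor level. The differences were +1.03 (SE 0.15, 2.04-fold, adjusted p = 0.000748) and +1.78 (SE 0.29, at least 2.74-fold with arrays under log2 4 set to that level, adjusted p = 0.00154) in limma's test.

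Snai1 encodes Snail, the founding repressor of this family, which acts early and briefly at the primitive streak. Its 1 probe set, 1448742_at, read 5.57, 4.99, 5.56 and 5.45 in ESCs and 6.32, 5.60, 6.03, 5.80 and 5.63 in embryoid bodies. The lowest embryoid body array lay just above the highest ESC array, so the groups were separate by a very small margin. The difference was +0.48 (SE 0.17, 95% interval 0.09 to 0.88). Snai1 did not pass, with an adjusted p of 0.0786 in limma's test. Without embryoid body array 9 it passed narrowly, at +0.54 with a limma adjusted p of 0.0492.

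The other 6 probe sets, 3 of Zeb1 and 3 of Zeb2, lay under log2 4 on every array and did not pass. Their differences ran from -0.08 at 1446127_at of Zeb1 (limma adjusted p = 0.16) to +0.14 at 1443005_at of Zeb1 (limma adjusted p = 0.351). The remaining 4 lay between these, 1420243_at of Zeb1 at -0.00 and, of Zeb2, 1422748_at at +0.02, 1454200_at at -0.05 and 1458941_at at -0.06. Across all tested probe sets 21049 were under log2 4 on every array, so these carry little information about either gene.

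**Figure D2:**
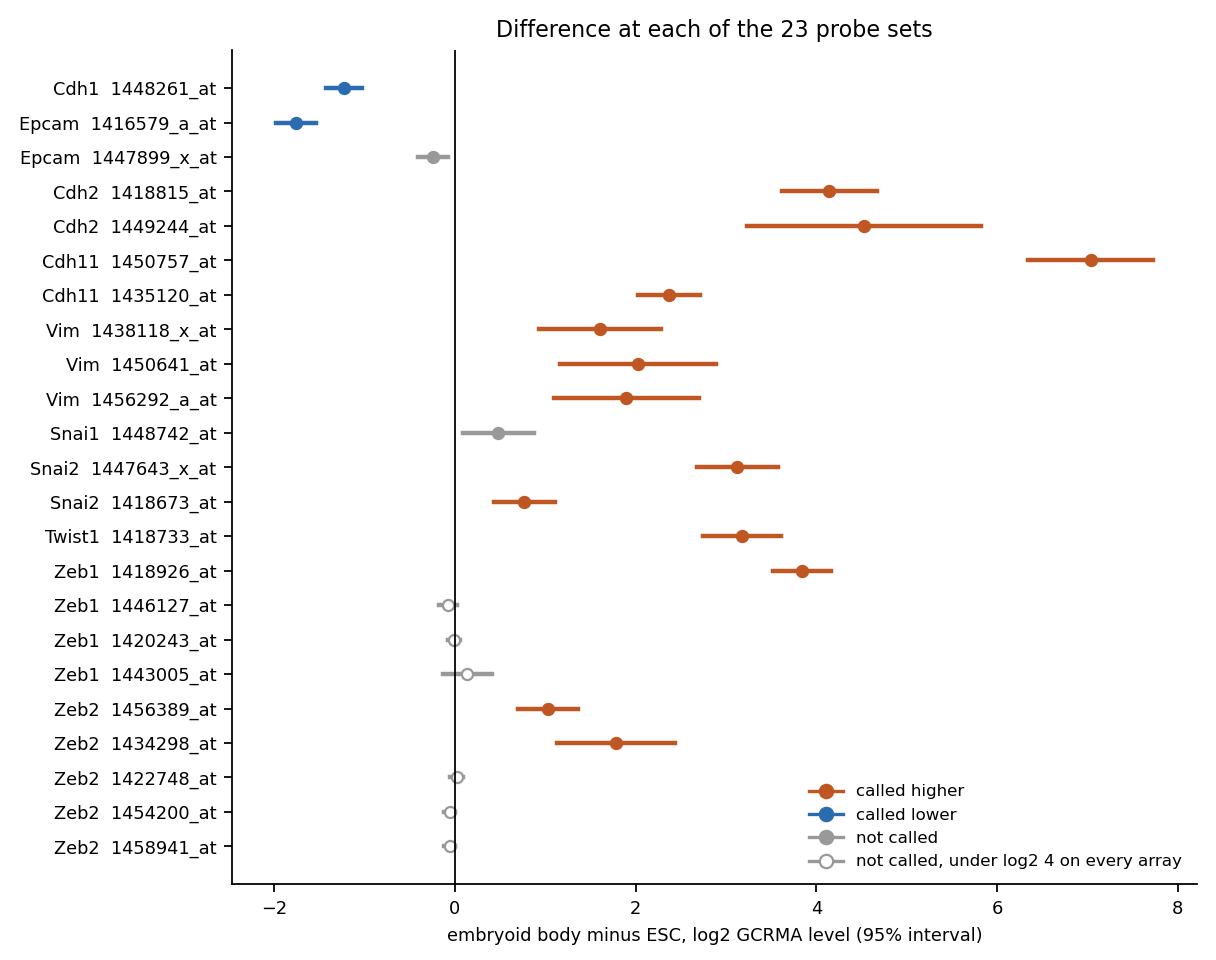
Embryoid body minus ESC difference in log2 GCRMA level at each of the 23 probe sets, as a point with its 95% interval from limma. Orange marks probe sets called higher, blue those called lower, grey those not called, and open points those under log2 4 on every array. The largest is Cdh11 at +7.04, Epcam is lowest at -1.75, and the 6 open points lie close to 0.

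Of the 23 probe sets, 13 were called higher, against 10.5% of all probe sets tested, and 2 were called lower, against 10.6%. Such counts are a description and not a test, since the genes were chosen with earlier results of these data known. The number of all probe sets called lower moved with the settings, from 4778 to 7272 with arrays centred, 12834 with array weights and 12735 without embryoid body array 9, so the shares given for lower calls are loose. In each of these 3 settings 3 of the 23 were lower, and 13, 13 and 14 were higher. Every embryoid body array was above every ESC array at 14 of the 23, against 10.4% of all, and below at 2, against 15.8%. The additional one among the 14 was Snai1. With 1 probe set a gene, the one with the highest mean, 7 of 10 genes rose, against 15.7% of all genes, and 2 fell, against 14.7%. The median difference of the 10 genes was 2.37, beside -0.04 over all genes, and that of the 23 probe sets was 1.03, beside -0.04 over all probe sets. The mean of all probe sets of a gene gave the same calls for all 10, with Cdh11 at 4.70, Cdh2 at 4.33, Zeb1 at 0.97 and Zeb2 at 0.54, the Zeb values being drawn in by the probe sets near the floor.

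Within the ESC group Vim, Cdh2 and several other members differed from array to array more than most probe sets did. The median SD over the 4 ESC arrays was 0.0577 for all probe sets, while the SD was 0.96 for Vim at 1450641_at and 1.46 for Cdh2 at 1449244_at. That median takes in the many probe sets near the floor, and those above the floor were not taken separately. The SD was 0.63 for Cdh11 at 1450757_at, 0.63 for Zeb2 at 1434298_at and 0.49 for Snai2 at 1447643_x_at, but only 0.06 for Cdh11 at 1435120_at. Set against the ESC mean, Vim at 1450641_at stood at -0.83 on both array 2 and array 6, +0.88 on array 8 and +0.78 on array 10. Cdh2 at 1449244_at stood at -1.29, -1.24, +1.32 and +1.21. The epithelial genes ran the other way by less, with Cdh1 at 0.13, 0.20, -0.10 and -0.23.

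Other genes moved across the ESC arrays as well. The summed linear level of the mesenchymal effector list was 9735 and 9900 on ESC arrays 2 and 6, and 17930 and 16510 on arrays 8 and 10. Acta2 (10.81, 10.49, 12.64 and 12.49 on the log2 scale) gave the largest part of that rise. For the fibroblast and mesenchyme markers the sums were 399.4, 363.5, 809.2 and 815.1 in the same order, with Postn and Thy1 under log2 4 on all 4 arrays. That rise was carried mostly by Col1a1 (6.98, 6.78, 9.03 and 9.02), while Col1a2 (6.85, 6.66, 6.92 and 7.06) and Pdgfra (6.93, 6.93, 6.93 and 6.90) moved little. The heart markers summed to 255.4, 264.6, 510.4 and 417.4, a rise carried by Actc1 (6.14, 6.91, 8.42 and 8.15 on the log2 scale), since Tnnt2, Myh6 and Nkx2-5 showed no such split. The pluripotency markers summed to 12670, 13520, 13910 and 12970, with Zfp42 and Nanog higher and Pou5f1 lower on arrays 8 and 10. Arrays 8 and 10 were thus higher in the sums of the effector and fibroblast lists, largely through Acta2 and Col1a1. Linear sums follow the most abundant genes. On the log2 scale Col3a1 (3.12, 3.65, 6.28 and 5.51) and Pdgfrb (2.86, 3.62, 5.26 and 5.41) were also higher on arrays 8 and 10. So were Fn1, Tagln, Sparc, Mmp2, Mmp14, Dcn and, by little on array 10, Cd44. Itga5 and Tnc were not, and S100a4, Lox and Fap lay under log2 4. The part of other cells in the ESC samples was not tested.

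Without ESC arrays 8 and 10, the Vim difference at 1450641_at was 2.86 (7.24-fold, limma adjusted p = 8.04e-06), and without ESC arrays 2 and 6 it was 1.20 (2.29-fold, limma adjusted p = 0.000363). For Cdh2 at 1418815_at the corresponding folds were 24.7 and 12.7. At 1449244_at, where ESC arrays 2 and 6 were both under log2 4, Cdh2 was at least 48.9-fold higher without arrays 8 and 10 and 9.59-fold higher without arrays 2 and 6. In the same way Cdh11 at 1450757_at was at least 151-fold and then 91.5-fold higher. For Cdh1 the differences were -1.39 and -1.06, and for Epcam at 1416579_a_at they were -1.93 and -1.57. Zeb1 hardly moved, at 3.86 and 3.82, and Twist1 stood at 3.18 both ways. No called probe set of the 10 genes lost its call in either case.

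Among embryoid bodies, arrays 7 and 9 were the highest for Cdh11, Vim, Twist1 and both Cdh2 probe sets. At 1450757_at Cdh11 deviated from the embryoid body mean by -0.32, -0.26 and -0.28 on arrays 1, 3 and 5 and by +0.43 and +0.42 on arrays 7 and 9. Cdh1 showed no such order. The summed mesenchymal effectors were 40620, 42860 and 40900 on arrays 1, 3 and 5, and 47300 and 48960 on arrays 7 and 9. Blood and endothelium markers summed to 5489, 6286 and 6048 against 1779 and 2368, fibroblast markers to 4659, 4616 and 5041 against 3161 and 3327, and pluripotency markers to 2652, 2870 and 2588 against 2216 and 1923. Arrays 7 and 9 thus had more of the effectors and less of the other 3 lists, and the part of these cell types in the Cdh11 and Twist1 levels was not tested. Without arrays 7 and 9 the difference was 6.75 for Cdh11 at 1450757_at, 2.95 for Twist1 and 1.90 for Vim at 1450641_at, all still called. In both groups, then, the arrays with the higher title numbers (7 to 10) lay higher for Vim, Cdh2 and Cdh11 at 1450757_at. What the numbers stand for is not given in the sources used here. With the numbers 1 to 6 and 7 to 10 as a block in limma's fit, a setting chosen after seeing the data, no call of the 23 probe sets changed. The difference was 2.12 for Vim at 1450641_at (adjusted p = 0.000254) and 7.12 for Cdh11 at 1450757_at (adjusted p = 9.38e-09).

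**Figure D3:**
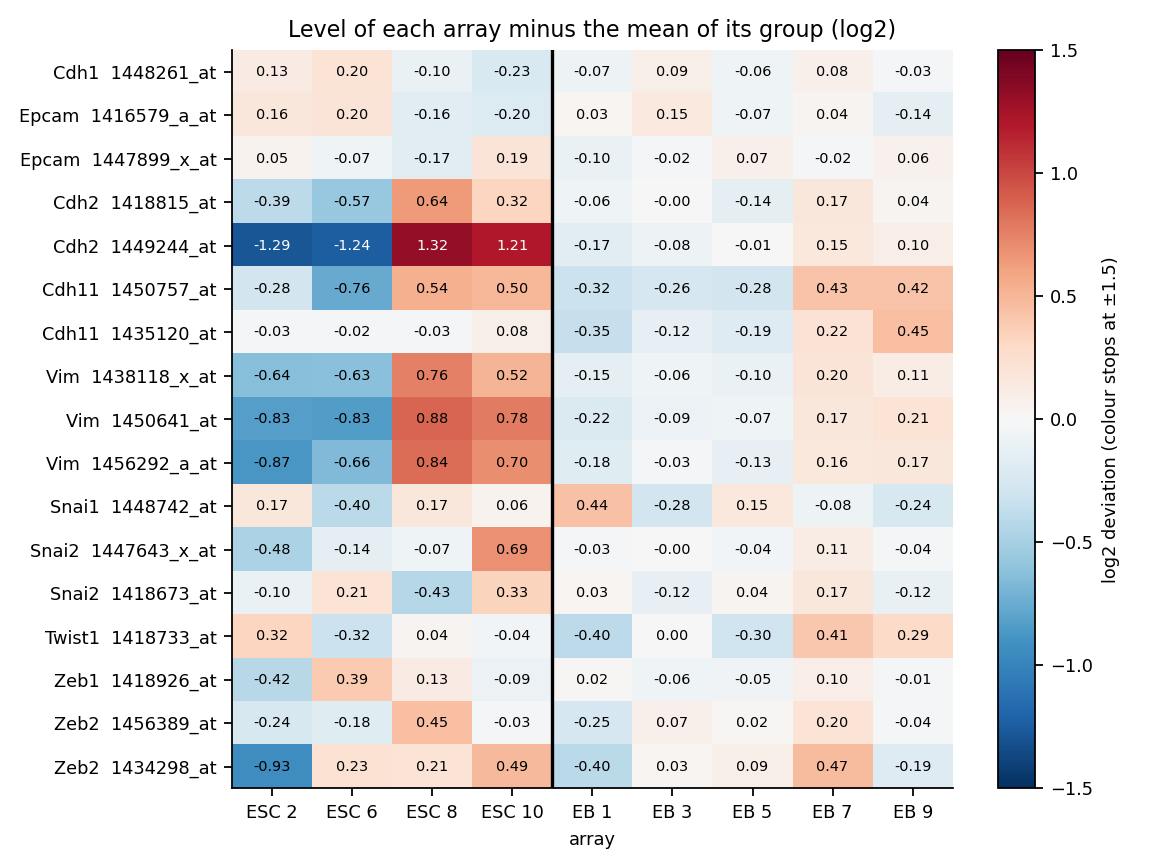
Level of each array minus the mean of its own group (log2 GCRMA) at the 17 probe sets that reached log2 4 on at least 1 array. Columns are the arrays, the black line separates ESCs from embryoid bodies, red is above and blue below the group mean. ESC arrays 8 and 10 are red at Vim and Cdh2, up to +1.32, and embryoid body arrays 7 and 9 are red at Cdh11 and Twist1.

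The genes around the switch were followed in 8 lists, for which 82 of 90 genes had a probe set of their own, taking 1 probe set a gene. Of the 82 genes, 29 rose, 16 fell and 37 did not pass, with a median difference of 0.02. Over all genes 15.7% were called higher and 14.7% lower, and the counts of each list below stand against these shares. Other transcription factors of the transition came closest to the 10 genes, with 7 of 10 higher, 1 lower and a median of 1.93. Foxc2, a forkhead factor of paraxial and vascular mesenchyme, rose by 4.21 (limma adjusted p = 1.96e-05) from ESC levels all under log2 4. With those set to that level, Foxc2 rose by at least 2.58. Hmga2, an architectural chromatin protein of early embryos, rose by 2.69 (limma adjusted p = 1.16e-06), and Twist2, the relative of Twist1, rose by 2.54 (limma adjusted p = 2.61e-06). The lower one, Snai3 at -0.12 (limma adjusted p = 0.0349), lay under log2 4 throughout and lost its call under quantile normalization, array centring and most settings with an array left out.

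Mesenchymal effectors, the matrix, protease and contractile genes that act downstream, were higher at 10 of 14 and lower at none, with a median of 1.34. With the mean of all probe sets of a gene, 1 was called lower. Col3a1, a fibrillar collagen, rose by 7.85 (limma adjusted p = 1.31e-05). Pdgfrb, a growth factor receptor of mesenchyme and pericytes, rose by 5.32 (limma adjusted p = 4.73e-05), and the matrix glycoprotein gene Tnc rose by 4.52 (limma adjusted p = 5.7e-05). Each had ESC arrays under log2 4. With those set to that level, Col3a1 rose by at least 7.55, Pdgfrb by 4.94 and Tnc by 4.14. Of the TGF-beta ligands, receptors and Smads, which induce the Snail and Zeb factors in many cells, 6 of 9 were higher and Smad7, the inhibitory Smad, was lower at -0.44. Tgfb2 rose by 3.06 (limma adjusted p = 0.000372), Tgfb1, under log2 4 on all ESC arrays, by 2.42 (limma adjusted p = 3.54e-06), and the signal transducer Smad3 by 2.18 (limma adjusted p = 5.45e-05). With its ESC arrays set to log2 4, Tgfb1 rose by at least 1.96.

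The epithelial side moved the other way by less. Among epithelial regulators and surface proteases 8 of 12 fell and none rose, with a median of -0.56. Esrp1, a splicing regulator of epithelial isoforms, fell by 2.02 (limma adjusted p = 2.1e-06), the protease gene Prss8 by 1.76 (limma adjusted p = 0.0168), and Grhl2, a grainyhead factor that supports Cdh1 expression, by 1.37 (limma adjusted p = 2.34e-06). Prss8 lay under log2 4 on every embryoid body array, and with those arrays set to that level its fall was at least 1.38. Summed over the list, ESC arrays 2 and 6 were at 4189 and 4208, arrays 8 and 10 at 3191 and 3119, and embryoid bodies at 1753 to 1933, the same order as for Cdh1 and Epcam. Desmosome genes were mixed, with 3 of 8 lower, 1 of which, Evpl, was under log2 4 on every array, and 1 higher. Dsg2, a desmosomal cadherin, fell by 0.92 (limma adjusted p = 0.00128) and the plaque gene Pkp2 by 0.34 (limma adjusted p = 0.0121), while desmoplakin, Dsp, rose by 0.53 (limma adjusted p = 0.000389).

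The list of adherens junction partners, which holds catenins, other cytoplasmic proteins and 2 nectins, had 2 of 9 higher, 2 lower and a median of -0.02. Jup, plakoglobin, fell by 0.73 (limma adjusted p = 1.43e-05) and alpha-catenin, Ctnna1, by 0.45 (limma adjusted p = 0.0139), while beta-catenin, Ctnnb1, rose by 0.35 (limma adjusted p = 0.000427) and the membrane protein gene Nectin3 by 0.34 (limma adjusted p = 0.0363). Most other cadherins did not pass, with 3 of 14 higher and none lower. These were Cdh5, the endothelial cadherin (+1.35, limma adjusted p = 8.27e-05), Cdh6 (+0.86, limma adjusted p = 0.000492) and Cdh3, P-cadherin (+0.39, limma adjusted p = 0.0132), and both Cdh5 and Cdh6 had embryoid body means below log2 4. With only probe sets of a mean of at least log2 4 tested, 1 cadherin was higher, and 1 was lower with quantile normalization or array centring and 2 with array weights. Of the 6 other intermediate filament genes of non-epithelial cells none was called higher and 1, the neuronal filament gene Ina, fell by 3.13 (limma adjusted p = 0.000234). With the mean of all probe sets of a gene, 1 of the 6 was higher and 2 were lower, and with quantile normalization 4 were lower.

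**Figure D4:**
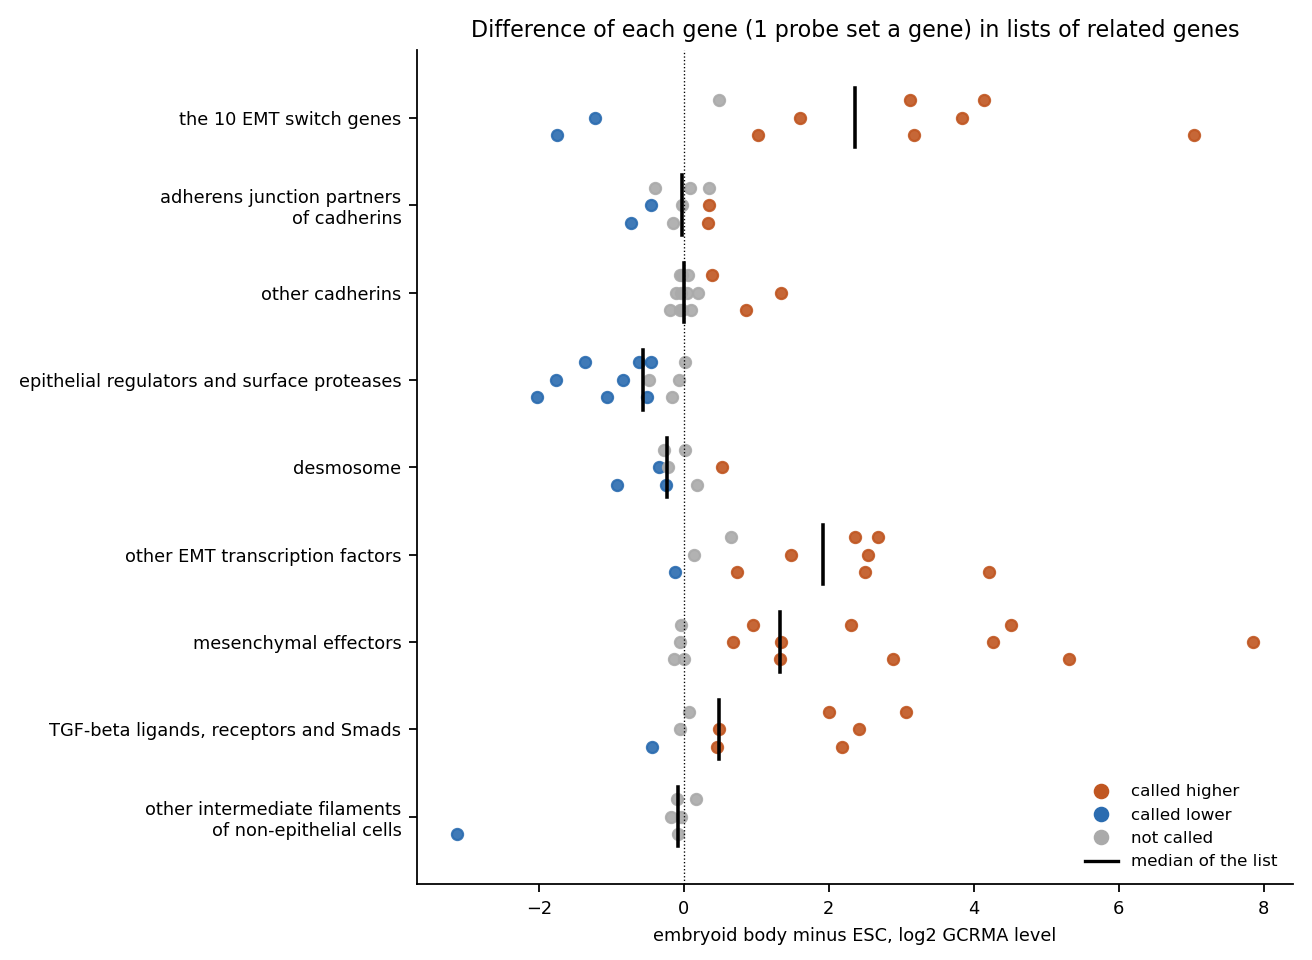
Embryoid body minus ESC difference in log2 GCRMA level of each gene, 1 probe set a gene, for the 10 genes and the 8 lists around them. Points are orange when called higher, blue when called lower and grey when not called, black bars are list medians, and the height of a point within its row has no meaning. The medians run from 2.37 for the 10 genes through 1.93 for other transcription factors to -0.56 for epithelial regulators and surface proteases.

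Embryoid bodies also held RNA of several cell types in which these genes are known to be used. Several of them were near the floor in ESCs, so their differences are given as bounds with arrays under log2 4 set to that level. Heart muscle markers rose at 4 of 5, with Myl7 at least 176-fold and Tnnt2 at least 174-fold higher. Blood and endothelium markers rose at 3 of 4. The globin genes Hbb-y, at a probe set that can cross-match, and Hba-x were at least 168-fold and 71.1-fold higher. The other one called, Tie1, was under log2 4 on every array, as was Pecam1, which did not pass. That list thus carries little information about endothelium. Fibroblast and mesenchyme markers rose at 4 of 6, with Postn at least 123-fold higher and Col1a1 at +2.52. These counts too stand against 15.7% of all genes higher and 14.7% lower. Markers of extraembryonic endoderm, itself an epithelium that carries Cdh1, rose at 3 of 5, with Gata6 at +3.08, Gata4 at +2.02 and Afp at +1.45. Ttr (+0.06, limma adjusted p = 0.384) and Sox17 (+0.39, limma adjusted p = 0.0825) did not pass, so this list was mixed. Streak and early mesoderm markers rose at 3 of 4, with Kdr at +2.01 and Eomes at +1.71, while Mesp1 was under log2 4 on every array. Neural markers fell at 3 of 5 and rose at 1, Sox1, with Stmn2 at -2.65 and Neurod1 at -1.70. Which of these cells carried the Cdh2, Cdh11 or Cdh1 transcripts cannot be told apart in whole embryoid bodies.

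The genes whose levels followed Cdh1 and Cdh2 most closely over the 9 arrays were taken from 2153 genes with a mean of at least log2 4 and an SD of at least 0.5. The likeness is Pearson r over 9 arrays, which mostly reflects the gap between the 2 groups that the arrays share, and it is a description. Nearest to Cdh1 were Bcat1 (r = 0.9975), Etl4 (0.997), Nit2 (0.9966), Kdm4c (0.9963) and Pycard (0.9962), all lower in embryoid bodies, by between 1.25 and 3.49. Nearest to Cdh2 at 1418815_at were Col4a1 (r = 0.9996), Igf2 (0.9992), Col5a1 (0.9991), Smad6 (0.9988) and Col4a2 (0.9984), all higher, by between 2.53 and 5.24. Of these 5, Col4a1, Col4a2 and Col5a1 encode collagens, Igf2 a fetal growth factor and Smad6 an inhibitory Smad.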

How the data were processed

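RNA of 4 ESC and 5 embryoid body samples was measured on Affymetrix mouse arrays. The authors deposited a table of linear intensities, computed per the labels by GCRMA, which corrects for probe background, normalizes arrays to a common distribution and summarises the probes of a set, and which can compress differences near the floor. Whether all 9 arrays were normalized together is not given in the sources used here. The 64 manufacturer controls were left out of the 45101 probe sets, and log2 was taken with no further normalization. Of these probe sets, 34945 carry a single gene symbol in the array annotation.

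Groups came from the sample titles. Each probe set was tested with limma 3.58.1 in R 4.3.3 (lmFit, eBayes with trend and robust), two-sided, with Benjamini-Hochberg adjustment over 45037 probe sets and a call at an adjusted p below 0.05, on 4 against 5 arrays with no covariate. The steps were tested on simulated data. Named genes were all probe sets of the 10 genes, up to 3 called genes of each pathway list with the largest difference, up to 2 per cell type marker list, and the 5 genes most like Cdh1 and Cdh2. Members and lists were chosen with earlier results of these data known. Alternatives were array centring, quantile normalization, no trend, array weights, a pseudocount of 16, filters on low levels, plain probe sets, a minimum difference of 1, and arrays left out.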

Additional observations from a re-analysis of the deposited data

Results flagged for a closer look

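In 6 of the 46 groups of arrays (2 groups at each of 23 probe sets) the highest or lowest array stood far from the others, and chance gives about 1 in 20. The ratio given is the gap to the nearest array over the whole range of the group. For Cdh11 at 1435120_at, ESC array 10 had a ratio of 0.839 within a range of only 0.117 on the log2 scale. At 1447643_x_at of Snai2, embryoid body array 7 had a ratio of 0.749 within a range of 0.148. The other 4 were at probe sets under log2 4 on every array: ESC array 10 at 1443005_at of Zeb1 (0.83), embryoid body array 9 at 1422748_at of Zeb2 (0.724), and, at 1454200_at of Zeb2, ESC array 10 (0.891) and embryoid body array 1 (0.712). All 6 ranges were below 0.15, smaller than any difference called among the 10 genes. The split of the ESC arrays at Vim and Cdh2 was not picked out in this way, since it lies between pairs of arrays.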

How the results depend on the processing

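All 15 calls among the 23 probe sets held, with the same direction, under each setting that kept the probe set, arrays left out included, save that 1418673_at of Snai2 (+0.77) is under a minimum difference of 1, which left 12 higher. Of 449 values under other settings, 441 had the same call and 8 newly passed, 7 of them at 1447899_x_at of Epcam (limma adjusted p from 0.0191 without ESC array 8 to 0.0487 without ESC arrays 8 and 10) and 1 at Snai1 (+0.54, adjusted p = 0.0492, without embryoid body array 9). Restricting to plain probe sets, a class that Epcam lacks, left 1 of the 2 lower calls. Across all probe sets, the count called lower moved from 4778 to 7272 with arrays centred, 12834 with array weights, 2997 with plain probe sets and 1104 with a difference of at least 1, and ran from 4088 to 12735 when 1 array was left out, the latter without embryoid body array 9. The count called higher went from 4729 to 1736 with a difference of at least 1. Of pathway genes, 19 were then higher and 5 lower, and 10 were lower without ESC arrays 2 and 6 or without embryoid body arrays 7 and 9, settings chosen after seeing the data. The causes were not tested. No paired analysis was run, because the groups share no replicate number and the labels state no pairing of neighbouring numbers. A block of the title numbers 1 to 6 and 7 to 10, chosen after seeing the data, changed no call of the 23. Limits are 9 arrays, GCRMA values compressed near the floor, no stated day for the embryoid bodies, and whole aggregates in which cell types cannot be told apart.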
